A study of Mus musculus with 4 samples.

Results

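Lysosomal enzymes and membrane proteins were examined in whole brains of mouse embryos in which Brn4::Cre deletes floxed Sox4 and Sox11. The genes were chosen by name, as 45 cathepsins and other proteases, glycosidases, sulfatases, lipid hydrolases, soluble cofactors, membrane proteins and the transcription factor Tfeb. Probe sets were taken where the array annotation gave exactly that gene symbol. This rule found 99 probe sets of 44 genes, among 18193 genes with an unambiguous symbol on the array. The signal of Cd63 was not analysed here, and Cd63 enters the promoter search only. The rule itself reads symbols only, but the list was drawn up with earlier results of these data known.

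RNA came from whole brains of embryos aged 14.5 days, whose strain was a 129SvJ/C57Bl/6J mixture, with 1 array per sample. The 2 control arrays came from Sox4 flox/flox, Sox11 flox/flox embryos, whose labels name no Cre. The 2 double-knockout arrays came from embryos with the same floxed alleles and Brn4::Cre, so both groups carry the floxed alleles and differ by the driver. Brn4 is another name of Pou3f4, and deletion is limited to cells in which the driver was active and to their descendants. The labels speak of biological replicates without giving the number of embryos behind an array, so the tests here reflect the spread of these arrays alone, which may be technical. The series title names the spinal cord, while every sample is labelled whole brain.

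The lysosome is an acidic compartment in which proteins, glycans and lipids are taken apart by hydrolases that work at low pH. Most soluble enzymes reach it through a mannose 6-phosphate tag and its receptors, a proton pump acidifies it, and membrane proteins such as Lamp1 line it. Every cell has lysosomes, and phagocytes such as microglia and macrophages, which in the brain are not descended from the neural tube, are known for especially high levels of lysosomal proteases. Inherited loss of many of these enzymes causes storage disease with damage to the brain.

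All values are Affymetrix probe set signals, on a linear scale. Median signals lay between 262.6 and 287.6 over the 4 arrays. The targeted genes were read first. All 6 tested Sox11 probe sets fell, the brightest from 25450.6 and 26097 in controls to 10306 and 9491 in knockouts (log2 change -1.38). Of 6 tested Sox4 probe sets 4 fell, with log2 changes of -2.69 to -1.09. The brightest one did not pass (36048 and 34819 against 37277 and 38263, log2 change 0.09) and another rose (5342 and 4255 against 17454 and 16453, 1.83). Which part of Sox4 each probe set reads was not analysed here, and a probe set outside the deleted part checks nothing. Of 10 neuronal markers, none had a signal under 3446 on any array. They check for neural tissue only and do not tell brain from spinal cord. Of these markers 7 fell (70.0%, beside 11.0% of all genes), 1 rose and 2 did not pass. The number of arrays, 2 per group, limits the precision of every value.

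About as many lysosomal genes rose in the double knockout as did not pass, and proteases had the highest median change. Rose, fell and passed refer to an adjusted p under 0.05 in limma, fitted over 27022 probe sets. A gene is read at its brightest tested probe set. Of the 44 genes, 43 were bright enough to be tested, and Tfeb was not. Of these 43, 22 rose (51.2%), 2 fell (4.65%) and 19 did not pass. Over all 12489 genes tested, 16.3% rose and 11.0% fell, 27.3% in either direction. The median log2 change of the 43 was 0.45, beside 0.06 over all genes tested. At least 2-fold rises were seen at 7 lysosomal genes (16.3%), beside 2.19% of all genes. Falls of at least 2-fold were seen at 0 of the 43 (limma) and at 1.38% of all genes. Both knockout arrays lay above both control arrays at 33 genes and below them at 4, and the groups overlapped at 6. Over all genes the knockout arrays lay above at 39.8% and below at 27.2%.

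Markers of microglia and macrophages also rose. Of 22 listed, 19 were tested. Of these 18 rose (94.7%, beside 16.3% of all genes) and 1 did not pass (Spi1, 0.13), with a median log2 change of 1.35. Their summed signal was 11288 to 12136 in controls and 30760.5 to 33528 in knockouts. The largest rises were those of Mpeg1 (2.35), C1qa (2.14), C1qb (2.01) and C1qc (1.88). The smallest were those of Mrc1 (0.39) and Pf4 (0.36). Both calls were lost whichever array was left out (0.29 to 0.49 for Mrc1, 0.30 to 0.42 for Pf4). They were also lost with no filter or without the variance trend of limma's eBayes. None of the tested markers was at 0, and the lowest signal was 108.5. The markers Trem2, Itgam and Cd14 were below the filter. With single arrays left out 14 to 16 of the 19 rose. The largest change among the 45 genes, Ctss (1.76), lies within the range of these markers, and none of the other lysosomal genes tested exceeded their median. In RNA from whole tissue, more cells of a type and more RNA per cell cannot be told apart, and the part of microglia and macrophages in the lysosomal result was not tested.

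The plot of signals by array shows the 24 genes past the threshold. In each of these, the knockout pair stands clear of the control pair, which largely follows from choosing genes past the threshold. The gap is wide at Ctss and narrow at Scarb2, Gaa and Lamp1.

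**Figure D1:**
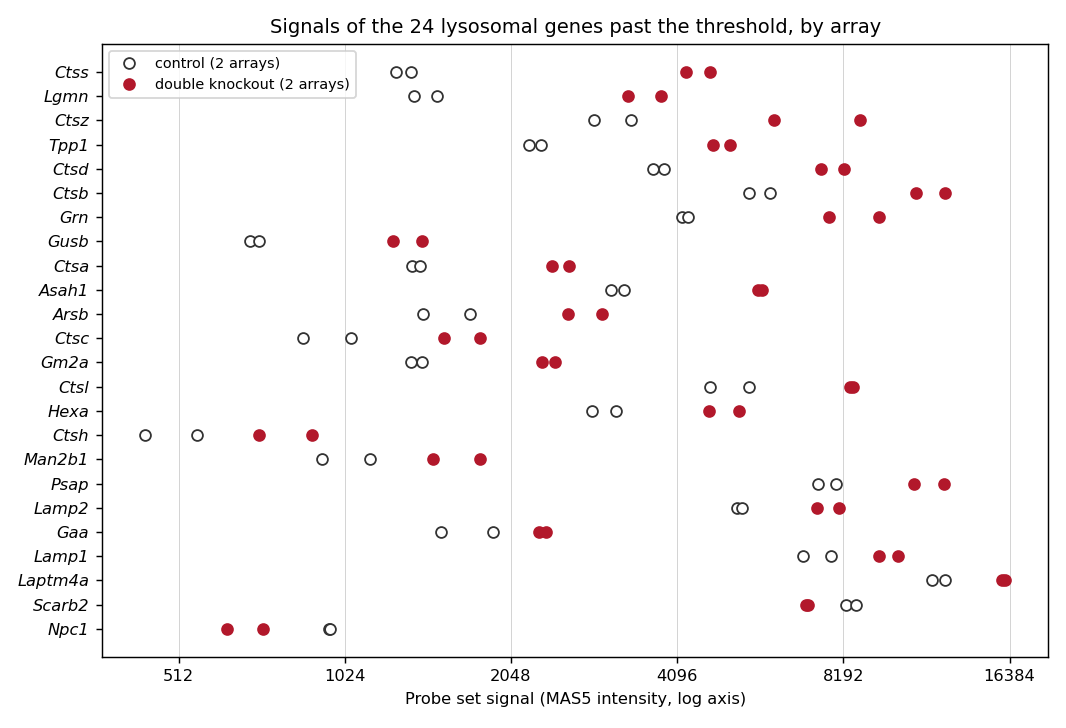
Signals of the 24 lysosomal genes that rose or fell, on a log axis of MAS5 intensity, with 2 control arrays (open) and 2 double-knockout arrays (filled) per gene. Genes are ordered by log2 change from Ctss (1.76) to Npc1 (-0.50), and levels compare arrays within a gene, not genes with each other.

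Tfeb and its relatives bind a short element with the core CACGTG, known from the promoters of lysosomal genes. RefSeq promoter windows were searched for it, from 250 bases before to 50 after the start (build GRCm38.p6). Of the 45 genes 39 have a window in the table, and Ctsb, Ctsh, Galns, Asah1, Npc1 and Laptm4b do not. CACGTG, which reads the same on both strands, was in a window of 14 of the 39 (35.9%), beside 8.09% of 27025 genes in the table and 11.7% of the tested genes with a window. The longer TCACGTG, on either strand and always overlapping the first, was in 12 (30.8%), beside 4.29% and 7.02%. Among the genes that rose and had a window, 6 of 19 held CACGTG, and among those that did not pass, 8 of 17. The holders that rose were Ctsa, Ctsd, Ctsl, Lgmn, Gaa and Lamp1. The holders that did not pass were Ctsf, Gla, Glb1, Naglu, Arsa, Sgsh, Cln3 and Mcoln1. A match describes these letters only. The last 120 bases before the start are shown for Ctss, the largest rise and without a match in its window, for 2 genes that rose with matches (Ctsd, Lamp1) and for 2 with matches that did not pass (Mcoln1, Glb1). Capitals mark CACGTG, which begins 98 bases before the start in Ctsd, 61, 45, 28 and 15 in Lamp1, 71 and 45 in Mcoln1 and 48 in Glb1. The printed stretches are chr3:95526666-95526785 (plus strand) for Ctss, chr7:142387828-142387947 (minus) for Ctsd, chr8:13159041-13159160 (plus) for Lamp1, chr8:3500399-3500518 (plus) for Mcoln1 and chr9:114400958-114401077 (plus) for Glb1.
Ctss: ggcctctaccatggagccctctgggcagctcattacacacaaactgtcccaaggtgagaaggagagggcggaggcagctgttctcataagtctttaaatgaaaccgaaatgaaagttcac
Ctsd: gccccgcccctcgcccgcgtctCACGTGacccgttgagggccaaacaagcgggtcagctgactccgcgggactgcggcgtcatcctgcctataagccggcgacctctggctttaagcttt
Lamp1: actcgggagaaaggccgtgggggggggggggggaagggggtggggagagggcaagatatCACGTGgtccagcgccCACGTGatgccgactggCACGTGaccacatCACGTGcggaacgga
Mcoln1: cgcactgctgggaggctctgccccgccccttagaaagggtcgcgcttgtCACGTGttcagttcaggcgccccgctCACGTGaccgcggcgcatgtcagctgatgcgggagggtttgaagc
Glb1: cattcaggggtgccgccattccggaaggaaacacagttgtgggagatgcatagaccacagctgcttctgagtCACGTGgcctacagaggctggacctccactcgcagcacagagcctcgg

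Proteases rose at 10 of 12 genes (83.3%, beside 16.3% of all genes), and the other 2 did not pass. Their median log2 change was 0.94, and both knockout arrays lay above both controls at all 12. At least 2-fold rises were found at 6 of them.

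Ctss, cathepsin S, a cysteine protease of microglia and other antigen-presenting cells, had the largest change. It read 1351 and 1269.5 in controls and 4246 and 4706 in knockouts. Both pairs are tight and lie far apart, a 3.38-fold rise (log2 change 1.76 ± 0.10, SE, adjusted p = 9.22e-06). Its promoter window, of which 120 bases are printed above, holds no CACGTG. Lgmn encodes legumain, an asparaginyl endopeptidase that processes cathepsins. It read 1504 and 1367 in controls and 3826 and 3334 in knockouts (log2 change 1.31 ± 0.11, adjusted p = 7.11e-05). Its lowest knockout array was above its highest control array, as at every protease. Ctsz, the carboxypeptidase cathepsin Z, read 2890.3 and 3383 against 8767 and 6122 (log2 change 1.22 ± 0.15, adjusted p = 0.000411). Here the knockout arrays differed from each other more than the controls did, and the SD was 1870.2 against 348. All 3 tested Ctsz probe sets rose.

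Tpp1, the tripeptidyl peptidase lost in a childhood form of neuronal ceroid lipofuscinosis, had signals of 2209 and 2320.3 in controls and 5101 and 4751 in knockouts (log2 change 1.12 ± 0.09, adjusted p = 6.23e-05). The aspartic protease cathepsin D, encoded by Ctsd, is a main endoprotease of the lysosome. Its probe set read 3707 and 3878 against 8205 and 7448, a log2 change of 1.04 ± 0.09 (adjusted p = 5.88e-05). Ctsb, a cysteine protease with exopeptidase activity, read 5518 and 6042.5 against 12512.5 and 11069 (log2 change 1.03 ± 0.09, adjusted p = 6.43e-05). All 3 genes rose just over 2-fold, with no overlap between the groups. Of 5 tested Ctsb probe sets 4 rose, by log2 changes of 0.70 to 1.30, and the dimmest did not pass (0.17).

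The remaining proteases changed by less than 2-fold. Ctsa, the carboxypeptidase that also protects neuraminidase and beta-galactosidase, read 1357 and 1402 against 2609 and 2426 (log2 change 0.86, adjusted p = 0.000486). A second Ctsa probe set near the filter did not pass (0.03). Ctsc, a dipeptidyl peptidase that activates serine proteases of immune cells, read 1050.1 and 859.0 against 1803 and 1547.5 (0.80, adjusted p = 0.0029). Ctsl, a ubiquitous cysteine protease, read 4692.5 and 5528 against 8410.5 and 8515 (0.73, adjusted p = 0.000502). Ctsh, an aminopeptidase, read 444.9 and 553.6 against 715.2 and 894.7 (0.67, adjusted p = 0.0199). The Ctsh pairs lie closest together among the proteases that rose. Its call was lost without control 1 (0.52), knockout 1 (0.83) or knockout 2 (0.51), with no filter (adjusted p = 0.0603) and without the variance trend of limma's eBayes (adjusted p = 0.069), and that of Ctsc without knockout 1 (0.69).

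Ctsk, the collagen-degrading protease of osteoclasts, and Ctsf missed the threshold narrowly. Ctsk read 342.5 and 444.7 against 561.1 and 596.0 (log2 change 0.55, 95% interval 0.15 to 0.95, adjusted p = 0.052). Without control 2 it passed (0.73). Ctsf read 722.8 and 715.1 against 1025.5 and 908.8 (log2 change 0.42, 95% interval 0.11 to 0.72, adjusted p = 0.0513). Neither gene had overlapping groups.

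**Figure D2:**
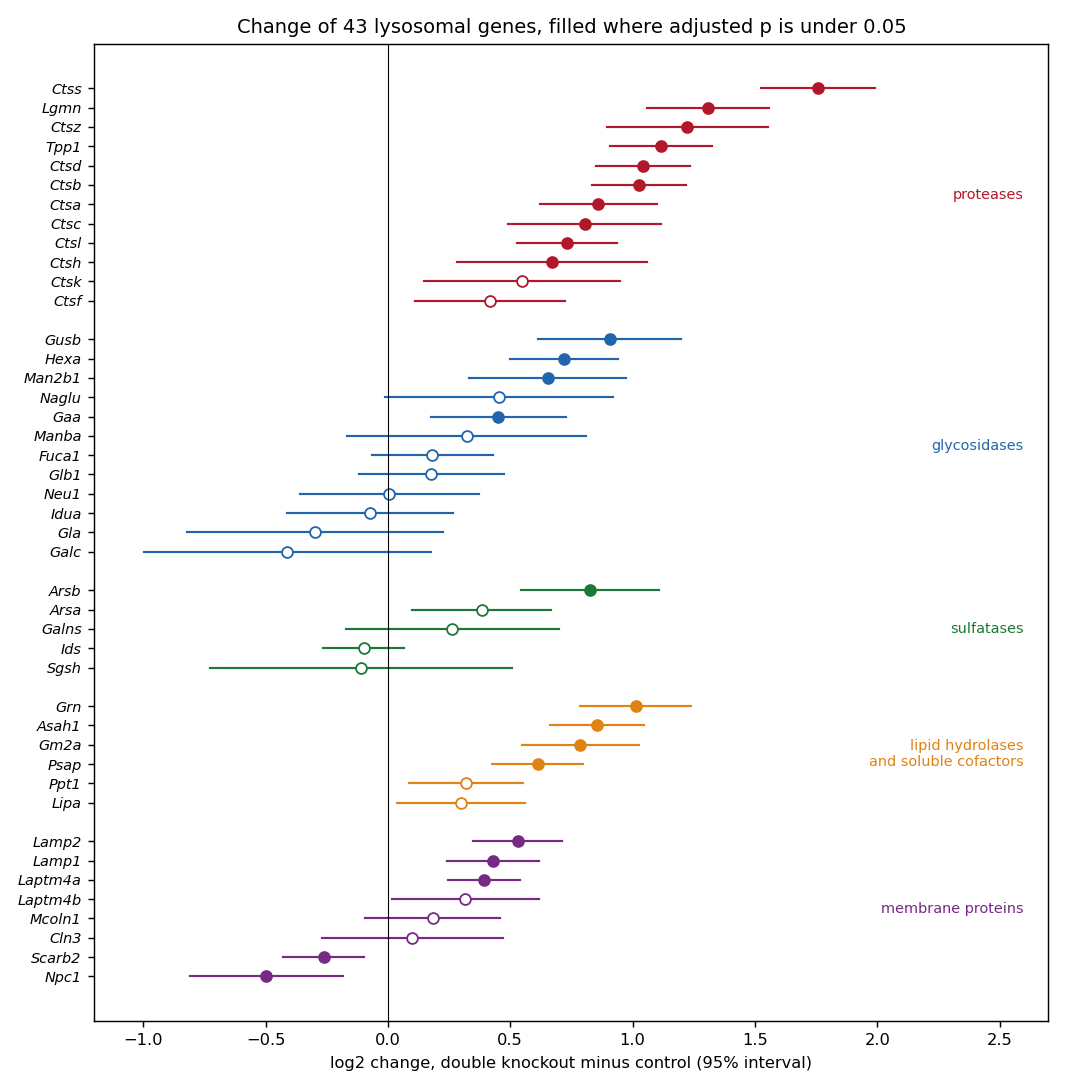
Log2 change of the 43 tested lysosomal genes, double knockout minus control, with the 95% interval of the limma fit, grouped by role and filled where the adjusted p was under 0.05. Proteases reach from 0.42 (Ctsf) to 1.76 (Ctss), while glycosidases, sulfatases and membrane proteins lie on both sides of 0.

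Lipid hydrolases and soluble cofactors rose at 4 of 6 genes (66.7%, beside 16.3% of all genes), and the other 2 did not pass. Their median log2 change was 0.70. Grn encodes progranulin, a secreted and lysosomal glycoprotein whose loss causes frontotemporal dementia. It read 4181 and 4293 in controls and 9510.1 and 7716 in knockouts (log2 change 1.01 ± 0.10, adjusted p = 0.000148). All 3 tested Grn probe sets rose (0.91 to 1.21). Asah1, acid ceramidase, read 3280.0 and 3109.9 against 5742 and 5825.5, with knockout arrays that differ by less than the controls (log2 change 0.85 ± 0.09, adjusted p = 0.000148). Gm2a, the activator that presents ganglioside to hexosaminidase A, read 1411 and 1350.2 against 2457 and 2329 (0.79). Psap, the precursor of the saposins, read 7367 and 7955.5 against 12477 and 10996 (0.61). Both tested probe sets rose at Gm2a and at Psap.

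Lipa, the acid lipase of cholesteryl esters, had a log2 change of 0.30 at its brightest probe set (adjusted p = 0.0943). Ppt1, the thioesterase lost in infantile neuronal ceroid lipofuscinosis, had one of 0.32 (adjusted p = 0.0512). A dimmer Ppt1 probe set rose from 679.7 and 646.1 to 1212 and 1102 (0.79, adjusted p = 0.00254), and another did not pass (-0.07). The Ppt1 result thus depends on the probe set read.

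Glycosidases were mixed. Of 12 genes 4 rose (33.3%, beside 16.3% of all genes), none fell and 8 did not pass, with a median log2 change of 0.25. Gusb, beta-glucuronidase, read 689.6 and 716.8 in controls and 1414 and 1253 in knockouts, the largest rise of the group (log2 change 0.91 ± 0.13, adjusted p = 0.0011). A dimmer Gusb probe set did not pass (0.59, adjusted p = 0.064). Hexa, the alpha subunit of hexosaminidase A whose loss causes Tay-Sachs disease, read 2869 and 3167 against 5291 and 4679 (0.72, adjusted p = 0.000847). These 2 pairs of groups were well separated. Man2b1, the lysosomal alpha-mannosidase, read 932.5 and 1138 against 1796 and 1478 (0.65), and without knockout 1 it did not pass (0.51). The average of its probe sets did not pass either (0.26), nor did the brightest one without the variance trend (adjusted p = 0.064). Gaa, the acid alpha-glucosidase that breaks down glycogen, read 1898 and 1527 against 2298 and 2369 at a probe set that can detect related transcripts (0.45, adjusted p = 0.025). This call was lost without control 2 (0.30), knockout 1 (0.47) or knockout 2 (0.43), with no filter (adjusted p = 0.0584) and without the variance trend (adjusted p = 0.103). The other Gaa probe set rose further, by 0.70.

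The 8 glycosidases that did not pass spanned log2 changes of -0.41 (Galc) to 0.45 (Naglu). Naglu, the heparan sulfate N-acetylglucosaminidase, read 302.3 and 243.2 against 410.7 and 346.8, without overlap (adjusted p = 0.148). Manba (0.32), Fuca1 (0.18) and Glb1 (0.18), enzymes that remove mannose, fucose and galactose, also had both knockout arrays above both controls. Neu1, the lysosomal sialidase, was at 0.00 with a 95% interval of -0.36 to 0.37. Idua (-0.07) and Gla (-0.30) had both knockout arrays below both controls, with intervals of -0.41 to 0.27 and -0.82 to 0.23. Galc, the galactosylceramidase of myelin lipids, read 723.7 and 907.8 against 852.5 and 428.7, so a single knockout array lay low. Without knockout 1 it fell (-0.89). The intervals of Idua, Neu1 and Gla do not reach the 0.91 of Gusb.

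Sulfatases rose at 1 of 5 genes (20.0%), a share near the 16.3% of all genes. Arsb, which removes sulfate from dermatan and chondroitin sulfate, read 1727 and 1419.5 in controls and 2991 and 2598 in knockouts (log2 change 0.83 ± 0.13, adjusted p = 0.00145). A second, dimmer Arsb probe set had a log2 change of -0.34 and did not pass, with both knockout arrays below both controls. The average of the Arsb probe sets did not pass either (0.24). Arsa, the sulfatase of sulfatide, missed the threshold (0.38, adjusted p = 0.0546) and passed without control 2 (0.52). Galns (0.26), Ids (-0.10) and Sgsh (-0.11), which act on keratan sulfate, on iduronate residues and on heparan sulfate, had overlapping groups. Ids read 15970.1 and 16856 against 16269 and 14412.5, with a 95% interval of -0.27 to 0.07.

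Membrane proteins moved in both directions. Of 8 tested, 3 rose (37.5%), 2 fell (25.0%) and 3 did not pass, with a median log2 change of 0.25. Over all genes 16.3% rose and 11.0% fell. Lamp1 and Lamp2 are the heavily glycosylated proteins that line the lysosome's inner face. Lamp1 read 6914 and 7792 against 10289.7 and 9498 (log2 change 0.43 ± 0.08, adjusted p = 0.00548), and its call was lost without knockout 1 (0.37). Lamp2 read 5267 and 5373 against 8049 and 7349 (0.53 ± 0.08, adjusted p = 0.00152). Of 4 tested Lamp2 probe sets, 1 other rose (0.56), and the dimmer ones did not pass (0.33 and 0.22). Laptm4a, a small transmembrane protein of late endosomes and lysosomes, read 11870.5 and 12511 against 16099 and 15898.5 (0.39 ± 0.07, adjusted p = 0.00238). Without the variance trend neither Laptm4a (adjusted p = 0.0773) nor Lamp1 (adjusted p = 0.0843) passed. In Lamp1, Lamp2 and Laptm4a the knockout pair lay above the control pair, by less than 1.5-fold. Laptm4b, a paralog of Laptm4a, had overlapping groups (0.32, adjusted p = 0.12) and passed without control 2 (0.52). The calcium channel Mcoln1 (0.18) and Cln3 (0.10), the latter lost in juvenile neuronal ceroid lipofuscinosis, did not pass. The 120 bases printed above for Mcoln1 hold CACGTG at 2 places.

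Npc1, which exports cholesterol from the lysosome, fell from 956.9 and 963.1 to 727.1 and 627.3 (log2 change -0.50 ± 0.14, adjusted p = 0.0288). Scarb2, the receptor that carries beta-glucocerebrosidase to the lysosome, fell from 8279 and 8644 to 7082 and 7015 at its brightest probe set (-0.26 ± 0.07, adjusted p = 0.0288). Each call was lost whichever of the 4 arrays was left out (log2 changes of -0.60 to -0.39 for Npc1 and of -0.29 to -0.23 for Scarb2), and also with no filter or without the variance trend. The second Scarb2 probe set rose from 1107 and 1133 to 1460.4 and 1638 (0.46, adjusted p = 0.0209). Scarb2 therefore has no single direction in these data. It was the only lysosomal gene of the 43 with 1 probe set that rose and 1 that fell. The dimmer Cln3 probe set fell (-0.66, adjusted p = 0.0409), unlike the brightest.

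Tfeb, the transcription factor that activates many lysosomal genes, had 1 probe set, below the filter on low signal. It read 222.5 and 33.8 in controls and 62.9 and 147.3 in knockouts. The 2 controls bracket both knockouts, so the groups overlapped, and Tfeb was not tested.

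Several probe sets read the same gene at 22 of the 43. Of these, 13 rose at the brightest one, and at 9 of the 13 at least 1 more probe set rose. Every tested probe set rose at 7 genes (Ctsh, Ctsz, Gaa, Gm2a, Grn, Psap and Tpp1). The second probe sets of Arsb and Man2b1 had changes of the opposite sign that did not pass. Counted by probe set, 37 of 79 tested rose (46.8%) and 3 fell (3.8%), beside 11.7% and 11.6% of all probe sets tested.

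**Figure D3:**
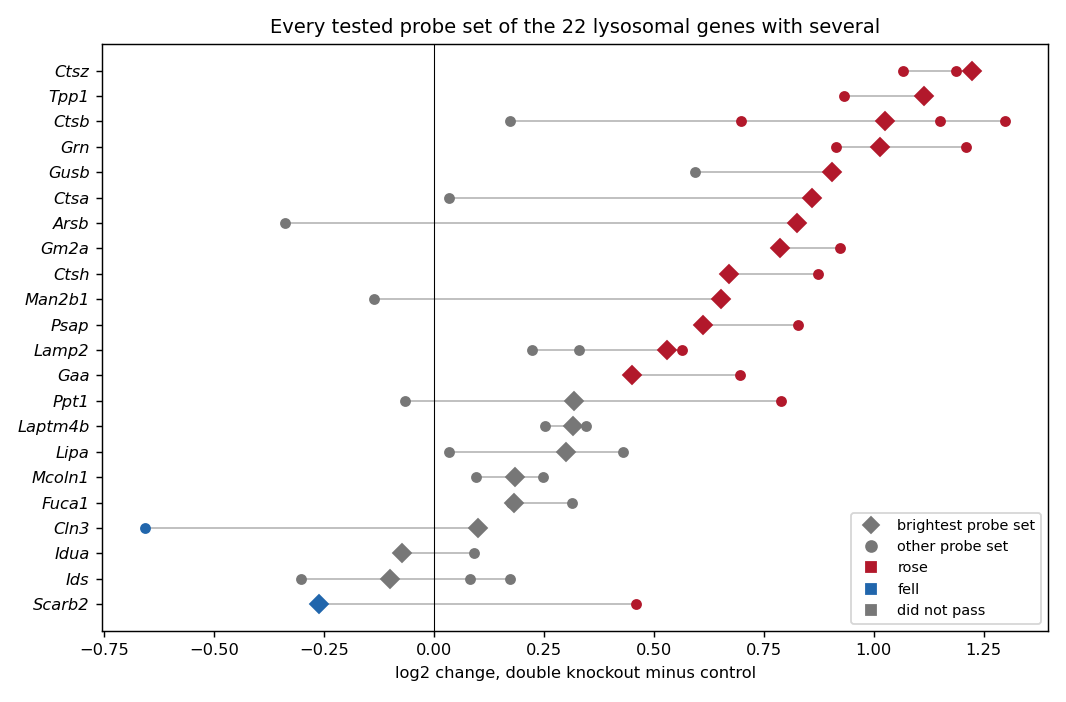
Log2 change of every tested probe set of the 22 lysosomal genes with several, the brightest as a diamond, coloured by whether it rose, fell or did not pass. The probe sets of Ctsz and Grn lie together above 0.9, while those of Arsb, Ppt1, Cln3 and Scarb2 spread over both sides of 0.

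Other genes of the lysosome, from lists that hold none of the 45, gave a smaller share of rises. Of 107 listed genes 87 were tested. Of these, 26 rose (29.9%), 2 fell (2.3%) and 59 did not pass, with a median log2 change of 0.17. This share lies between that of the 45-gene list and the 16.3% of all genes, and the difference between the lists was not tested. Without knockout 1 the number that rose was 12.

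Further hydrolases and cofactors rose at 8 of 23 genes (34.8%, beside 16.3% of all genes) and fell at none. Ctso, the cysteine protease cathepsin O, read 746.0 and 670.4 in controls and 1822 and 1594 in knockouts (log2 change 1.25 ± 0.13, adjusted p = 0.000194). Aga (1.01), which cleaves asparagine-linked sugars, Sumf1 (0.94), which activates all sulfatases, and Pld3 (0.94), a lysosomal exonuclease, followed. None of these 4 lost its call with an array left out. Sumf1 read 537.2 and 579.5 against 1162 and 1021.

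Subunits of the proton pump rose at 10 of 17 genes (58.8%, beside 16.3% of all genes) and fell at none. The highest log2 change was 0.61. Atp6v1a, the catalytic subunit, read 5110.3 and 5940.4 against 8419.7 and 8469.5 (log2 change 0.61 ± 0.09, adjusted p = 0.00108). Atp6v0e (0.55), Atp6v0e2 (0.40) and Atp6v0d1 (0.40), subunits of the membrane sector, came next. Most of the 10 calls were lost without knockout 1, that of Atp6v0e2 (0.33) among them. Without the variance trend only Atp6v1a and Atp6v0e kept their calls. The pump is also used to fill synaptic vesicles, so these genes are not specific to lysosomes.

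Further membrane proteins rose at 4 of 21 genes (19.0%), a share near the 16.3% of all genes, with a median log2 change of 0.00. These were Slc11a1 (1.01), a metal transporter of phagocytes, Tmem192 (0.61), Glmp (0.61) and Tpcn1 (0.48), a cation channel. The calls of Slc11a1 and Tmem192 were lost without either knockout array (1.04 and 0.99, 0.56 and 0.66), and that of Tpcn1 without control 1 (0.42), knockout 1 (0.39) or knockout 2 (0.57). Of 9 tested genes of mannose 6-phosphate tagging and sorting 0 rose (limma) and 1 fell. This was Gga2, an adaptor that packs the receptors into vesicles, which fell from 2689 and 2802.5 to 1889 and 1949 (-0.51 ± 0.10, adjusted p = 0.00519). The receptors Igf2r (-0.22) and M6pr (0.05) did not pass.

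Among relatives of Tfeb and the mTORC1 machinery that controls them, 2 of 15 rose (13.3%, a share near that of all genes) and 1 fell. Lamtor4 (0.57) and Lamtor2 (0.40), parts of the lysosomal anchor of mTORC1, rose, and Rragd (-0.43), a GTPase of the same pathway, fell. Lamtor2 lost its call without control 1 (0.35) or knockout 2 (0.36), and Rragd without control 2 (-0.39) or knockout 1 (-0.36). Without the variance trend none of these passed (adjusted p = 0.056 for Lamtor4, 0.0817 for Lamtor2 and 0.0755 for Rragd). The average of the Rragd probe sets did not pass either (-0.31). Tfe3 (0.37) and Mitf (0.45), the tested relatives, did not pass. Both tested inhibitors of cysteine cathepsins rose, Cst3 (0.56), cystatin C, and Cstb (0.34), cystatin B. The call of Cstb was lost without control 1 (0.21), knockout 1 (0.40) or knockout 2 (0.28).

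**Figure D4:**
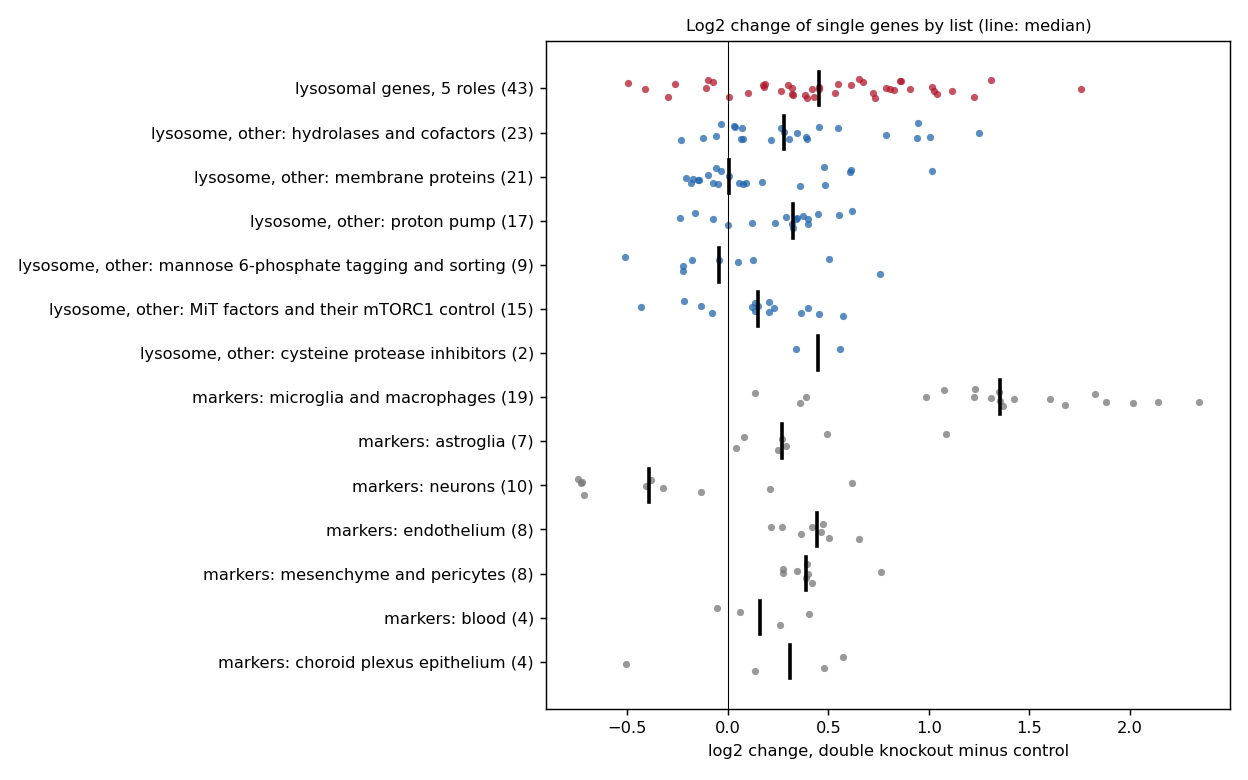
Log2 change of single tested genes, double knockout minus control, for the 43 lysosomal genes (red), 6 lists of other lysosomal genes (blue) and 7 lists of cell type markers (grey), with the number tested in brackets and a line at each median. The median is 0.45 for the lysosomal genes and 1.35 for the microglia and macrophage markers.

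Markers of other cell types were mixed. Over all genes 16.3% rose and 11.0% fell. Of 7 tested astroglial markers 2 rose (28.6%, median log2 change 0.27), Aqp4 (1.09) and Aldoc (0.49), and the other 5 did not pass. Of 8 endothelial markers 5 rose (62.5%, median 0.44), led by Tek (0.65), Cdh5 (0.50), Kdr (0.47) and Esam (0.46). Of 8 mesenchymal and pericyte markers 5 rose (62.5%, median 0.39), led by Postn (0.76), Rgs5 (0.42), Col1a2 (0.40) and Col3a1 (0.39). Their summed signals were 55549.5 to 56755 in controls and 61905 to 63861 in knockouts for astroglia, 6979.5 to 7692 and 9631 to 10326.5 for endothelium, and 32366 to 34515 and 43541 to 44826 for mesenchyme. The 10 neuronal markers had a median of -0.40, with falls led by Tubb3 (-0.75), Dcx (-0.73), Nefm (-0.73) and Elavl3 (-0.72). Snap25, from the same list, rose (0.62, adjusted p = 0.001), while Rbfox3 (0.21) and Map2 (-0.14) did not pass. The summed signal of the 10 was 131463 to 137076 in controls and 104292 to 107159 in knockouts. Of 4 tested blood genes 0 passed (median 0.16, limma), Slc4a1 (0.41) and Hba-x (0.26) having the highest changes. The choroid plexus list had 2 rises, Folr1 (0.57) and Clic6 (0.48), and 1 fall, Otx2 (-0.51), among 4 tested (median 0.31). Many of these marker calls were lost with single arrays left out. Cdh5 lost its call whichever array was left out (0.49 to 0.52), Tek (0.42, 0.60 and 0.71) and Esam (0.32, 0.35 and 0.58) without control 1, knockout 1 or knockout 2, and Kdr without control 1 (0.47), control 2 (0.47) or knockout 1 (0.34). The call of Rgs5 needed control 1 (0.22 when left out), knockout 1 (0.35) and knockout 2 (0.49). Aqp4 and Folr1 were not called without knockout 1 (1.17 and 0.56) or knockout 2 (1.00 and 0.58), and Postn (0.59) and Clic6 (0.42) without knockout 2. The part of these cell types in the lysosomal result was not tested.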

How the data were processed

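The authors deposited 1 linear intensity per probe set and array, and the submitters' processing notes name MAS5 5.0. No genome build was needed for these values. The trimmed mean of each array (2% at either end) was 1000.0, so 1 factor per array had been applied, and a shift shared by most transcripts would be removed. Biotin-labelled RNA was amplified from 100 ng, per the labels' protocols.

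Control probe sets (64 of 45101) were left out. Signals were transformed as log2(signal + 16), so changes of dim genes are understated. Probe sets with a mean log2 value above the 40th percentile (signal 154.6) were tested: 27022, of 12489 genes. The test was limma 3.58.1 (R 4.3.3), lmFit and eBayes with a variance trend, knockout minus control, Benjamini-Hochberg over all probe sets tested. All 44 symbols matched RefSeq by gene ID. Intervals are 95% limma intervals; SDs are of 2 signals. The steps were tested on simulated data.

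The 45 genes and all lists were chosen with earlier results of these data known. The text names every one of the 45, Sox4 and Sox11. Of the other lists it names up to 4 genes by size of change among those past the threshold. Where none passed, it names the 2 with the largest change. Snap25, Rbfox3, Map2, Spi1, Mrc1, Pf4, Trem2, Itgam, Cd14, Igf2r, M6pr, Tfe3 and Mitf were named in addition, after their values were seen. The alternatives tried were other scalings (quantile, median), other pseudocounts (1, 64), other filters (none, 60th percentile), eBayes robust or with no trend, an adjusted p under 0.1, fits leaving out 1 array, a replicate block, and gene means over probe sets.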

Additional observations from a re-analysis of the deposited data

How the results depend on the processing

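The number of tested lysosomal genes that rose stayed within 17 to 27 under every alternative tried, and the median log2 change kept its sign. The number tested was 43, except for 37 with the 60th percentile filter and 44 with no filter. The same 17 genes rose with each array left out (17 to 24 rose in these fits). The median was 0.42 to 0.52 with single arrays left out, 0.49 with median centring, 0.43 with a pseudocount of 64, 0.44 with no filter, 0.55 with the 60th percentile and 0.41 with gene means over probe sets. The number that fell was less stable: 1 with median centring, 0 without the filter, 0 without the variance trend, 1 with the mean of probe sets, and 0 to 1 with single arrays left out. Scarb2 changed sign with the mean of its probe sets (0.10), as did the log2 change of Sox4 (-1.07). Of the other lysosomal genes 11 rose and 1 fell without the variance trend, 1 fell with the mean of probe sets, and 12 to 24 rose and 1 to 2 fell with single arrays left out. Over all probe sets, 1471 rose and 1643 fell without the variance trend, beside 3152 and 3125 with it. The cause of these differences was not tested. With the replicate number as a block, 25 of the 43 rose, Ctsk, Arsa and Laptm4b being added, and 2 fell; 27 other lysosomal genes rose. Deviations of same-numbered arrays from their group means correlated with r = 0.00283, and the labels do not say that a number marks a shared litter or day. Where an array is left out, its group's remaining one is taken to vary as the other group does. With 2 arrays per group, small changes such as those of Ctsf and Ppt1 lie at the threshold.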
